A study of Mus musculus with 3 samples.

Results

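The genes described here are 47 developmental regulators with a homeobox or a paired box that lie outside the Hox clusters. They were chosen by name, not by a cut on any measured value, but with earlier results of these data known. All 47 were matched by symbol among the 21938 protein-coding genes of GENCODE mouse release 21. They comprise 6 Dlx, 6 Nkx, 7 Pax and 7 Lhx genes, Six2, Six3 and Six6, 2 Msx, 4 Otx and Emx, 3 Gbx and Gsx, 2 En, 2 Barhl, 2 Evx and 3 Irx genes. The cells were MEL, an immortalized line of murine erythroleukaemia cells blocked at a red cell precursor stage, and DNase-seq mapped where the nuclease DNase I cut their chromatin most. All 3 libraries belong to 1 group, MEL cells kept for 24 hours in zinc dichloride (125, in a unit whose prefix cannot be read in the labels). Biological replicate 1 is represented by 2 libraries together and biological replicate 2 by 1 library, each with 1 deposited list of peaks and 1 of hotspots. Untreated cells were not analysed here. The values describe treated cells and compare groups of genes within a list, or the lists with each other.

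Homeobox genes encode transcription factors that bind DNA through a homeodomain, and Pax genes encode factors that bind through a paired domain, in some members together with a homeodomain. They pattern the brain, the sense organs, the skeleton, the gut and the endocrine organs of the embryo. Outside those lineages such genes are known as targets of the Polycomb complexes, which modify histones around CpG-rich promoters and hold the genes silent.

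The deposited lists held 304049 peaks for biological replicate 1 and 106591 for biological replicate 2, each peak 150 bp wide. Values below are given as replicate 1 then replicate 2. The authors' peak scores had medians of 62 and 30. What the score counts is not stated, so a score ranks a peak only within its own list. Read depth is unknown for both lists, and a gene without a peak is a gene at which none was called. Of 12 erythroid marker genes, promoter peaks were called at all 12 in replicate 1 and at 9 in replicate 2. The shares of all protein-coding genes were 63.6% and 49%. In replicate 2 the 95% Wilson interval for the erythroid markers, 46.8 to 91.1%, includes the share of all genes. The same 2 of 12 neural progenitor markers (Nes and Neurog2) had a promoter peak in both lists (16.7%, 4.7 to 44.8%).

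Promoter peaks were rare at the homeobox and Pax genes. A promoter peak was a peak overlapping the 1000 bp on either side of any annotated transcript start of the gene. In replicate 1, 6 of the 47 genes (12.8%, 95% Wilson interval 5.98 to 25.2%) had a promoter peak, against 63.6% of all protein-coding genes. In replicate 2, 3 of 47 (6.38%, 2.19 to 17.2%) had one, against 49% of all genes. The 3 genes of replicate 2, Dlx1, Pax6 and Pax9, were among the 6 of replicate 1, and 48.9% of all genes had a promoter peak in both lists. The other 3 genes of replicate 1 were Lhx3, Lhx6 and Otx2. The remaining 41 genes had no promoter peak in either list. These intervals cover counting error only, and neighbouring genes share chromatin, so they are no measure of spread between cultures.

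Hotspots, the broader stretches in which the authors' caller found an excess of cuts, gave nearly the same genes. A promoter hotspot was present at 7 of 47 genes in replicate 1 (14.9%, 7.41 to 27.7%; 64.3% of all genes) and at 3 of 47 in replicate 2 (6.38%; 49.3% of all genes). The additional gene was Lhx9. Distal peaks were those over 1000 bp from any protein-coding start and within 20000 bp of a start of the gene. At least 1 distal peak lay near 43 of 47 genes in replicate 1 (91.5%, 80.1 to 96.6%) and near 29 of 47 in replicate 2 (61.7%, 47.4 to 74.2%). The shares of all protein-coding genes were 88.8% and 66.4%, inside both intervals.

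**Figure D1:**
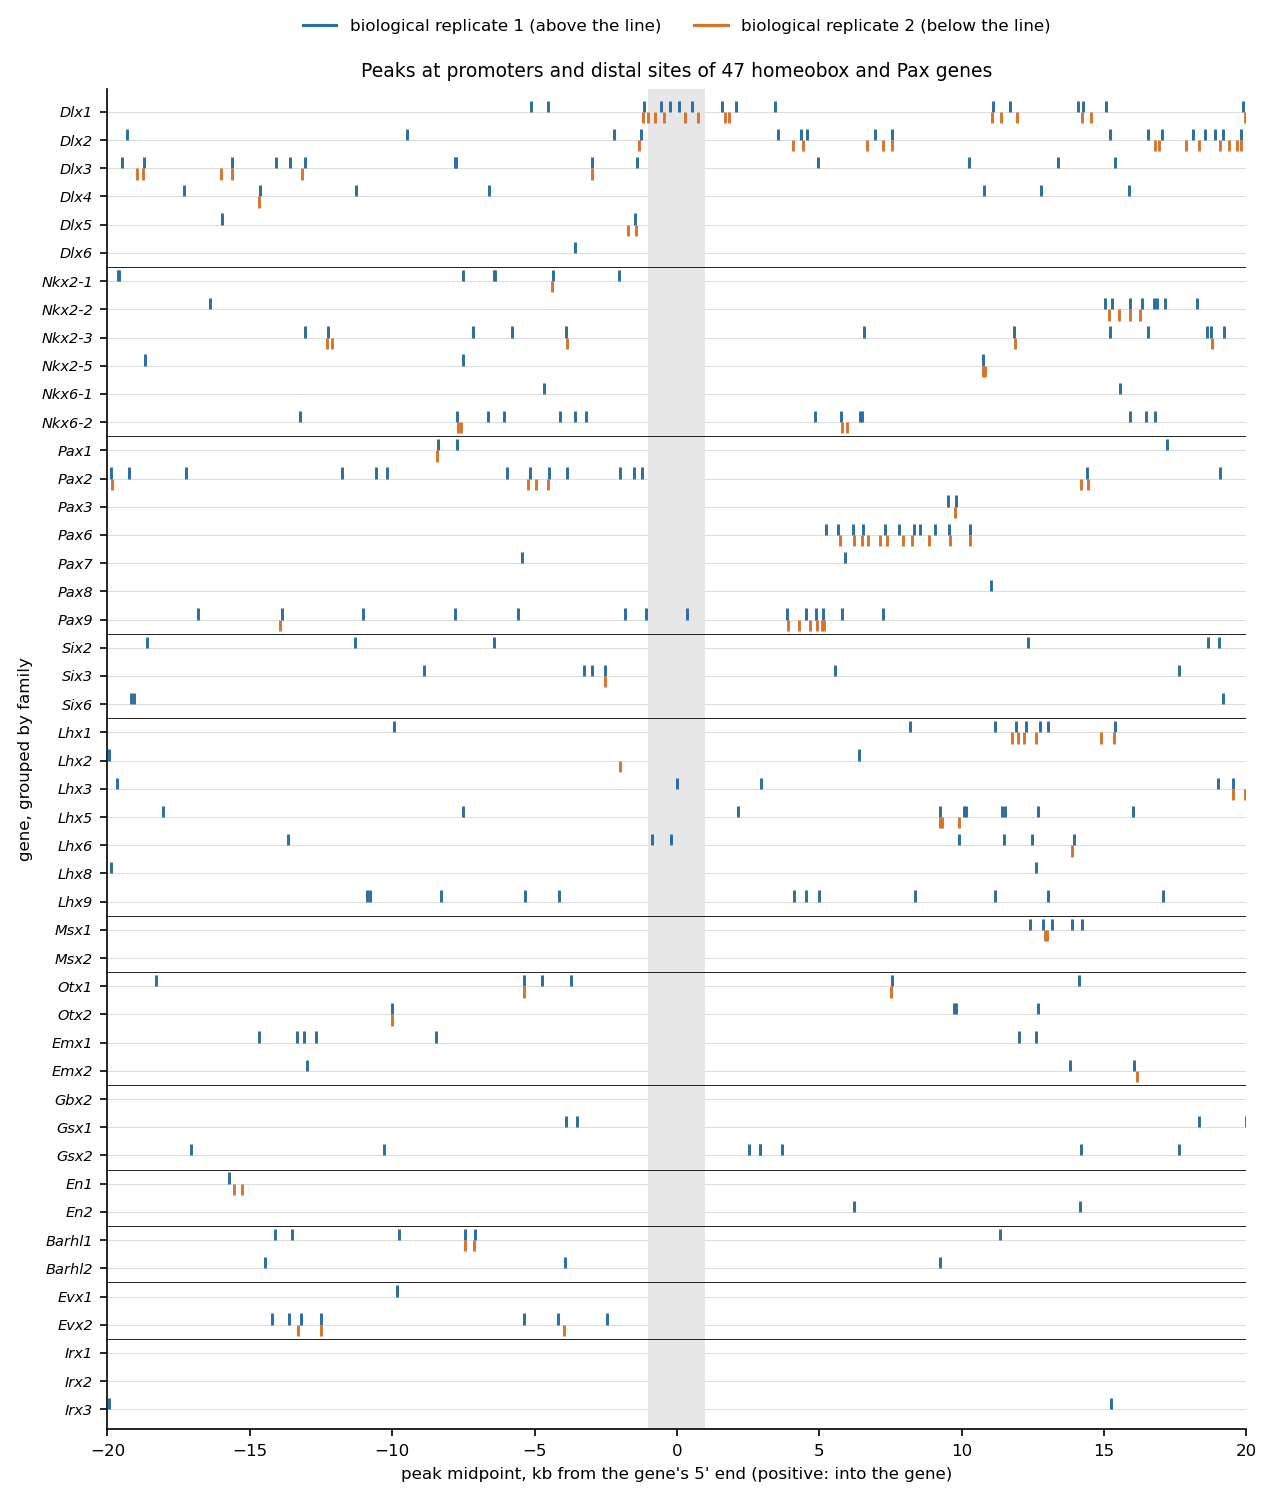
Peaks within 20 kb of the 5' end of each of the 47 genes (rows, grouped by family). The horizontal axis is the distance of the peak midpoint from the 5' end in kb. Blue ticks above a line are peaks of biological replicate 1, orange ticks below it peaks of biological replicate 2, and the grey band marks 1 kb on either side of the 5' end; peaks at the starts of other genes are drawn too. Within the band, ticks appear at Dlx1 in both lists and at Lhx3, Lhx6 and Pax9 in replicate 1, while the Pax6 ticks lie between 5 and 11 kb inside the gene.

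As examples of upstream windows without a peak, chosen to include CpG-rich ones, the 250 bases upstream of a RefSeq start are given for 4 genes. Each window overlaps no annotated exon (RefSeq, build GRCm38.p6, the assembly called mm10). Each is written 5′ to 3′ on the gene's strand, with CpG dinucleotides in capitals. None of the 4 windows overlapped a peak in either list, although Pax6 had promoter peaks at internal starts in both lists. The Dlx2 window lies at chr2:71546755-71547004 on the minus strand, the Barhl2 window at chr5:106458167-106458416 on the minus strand, the Msx1 window at chr5:37824586-37824835 on the minus strand and the Pax6 window at chr2:105668646-105668895 on the plus strand.
Dlx2: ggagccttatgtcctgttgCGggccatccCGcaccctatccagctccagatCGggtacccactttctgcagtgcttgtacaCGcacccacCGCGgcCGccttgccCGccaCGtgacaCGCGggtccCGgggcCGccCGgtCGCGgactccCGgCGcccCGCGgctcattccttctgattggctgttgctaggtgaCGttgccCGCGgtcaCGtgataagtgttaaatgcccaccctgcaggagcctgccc
Barhl2: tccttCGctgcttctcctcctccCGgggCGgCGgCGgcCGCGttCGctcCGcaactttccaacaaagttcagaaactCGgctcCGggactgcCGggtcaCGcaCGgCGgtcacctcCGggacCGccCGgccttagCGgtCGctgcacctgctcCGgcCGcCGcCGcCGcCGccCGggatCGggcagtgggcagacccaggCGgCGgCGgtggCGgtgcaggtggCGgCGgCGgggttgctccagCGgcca
Msx1: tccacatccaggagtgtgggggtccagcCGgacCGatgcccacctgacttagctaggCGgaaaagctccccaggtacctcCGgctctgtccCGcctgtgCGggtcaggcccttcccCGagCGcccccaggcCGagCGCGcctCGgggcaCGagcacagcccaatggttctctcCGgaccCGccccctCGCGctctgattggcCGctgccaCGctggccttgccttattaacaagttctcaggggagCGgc
Pax6: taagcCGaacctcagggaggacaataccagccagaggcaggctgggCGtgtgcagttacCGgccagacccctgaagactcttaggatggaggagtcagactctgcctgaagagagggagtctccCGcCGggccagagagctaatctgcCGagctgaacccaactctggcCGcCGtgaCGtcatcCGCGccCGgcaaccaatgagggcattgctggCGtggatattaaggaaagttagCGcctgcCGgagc
They hold 24, 36, 20 and 15 CpGs. Over 32851 RefSeq upstream windows of the same length the median was 6 CpGs and the upper quartile 16, so the first 3 lie above the upper quartile and the Pax6 window lies just under it. The RefSeq table held 38 of the 47 genes, with 49 windows whose median was 15 CpGs (range 4 to 36). The 14 windows with no exon and no peak had a median of 14.5 (5 to 36), so the Dlx2, Barhl2 and Msx1 windows lie at the CpG-rich end of these, above their upper quartile of 19.

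Among the Dlx genes, which pattern the forebrain, jaws and limbs and drive the formation of inhibitory neurons, Dlx1 alone had a promoter peak. The 6 genes stand in 3 pairs whose members face each other, and Dlx1 and Dlx2 have their 5′ ends 18641 bp apart on chromosome 2. Dlx1 (71528113 to 71533981, plus strand, mm10) had 7 promoter peaks in each list. In replicate 1 their scores ran from 41 to 142, with the highest at chr2:71529636-71529785. In replicate 2 they ran from 20 to 51, with the highest at chr2:71529736-71529885, overlapping the top peak of replicate 1. These top peaks outranked 97.8% and 90.7% of the peaks of their lists. The main hotspot covered 2680 bp in replicate 1, from 108 bp upstream of the 5′ end to 2571 bp into the gene, and was wider than 99.3% of that list's hotspots. In replicate 2 it was broken into pieces, the widest of 1234 bp. The antisense gene Dlx1as has a start within 1000 bp of the peaks around the 5′ end. It has none that near the top peaks, which lay in exons of Dlx1. DNase-seq has no strand, so the peaks around the 5′ end cannot be assigned to either gene.

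Dlx2, the partner of Dlx1 and expressed with it in the forebrain, had its nearest peak 1182 bp from its 5′ end in replicate 1 and 1242 bp in replicate 2. Its start sat in a peak-free stretch of 4670 and 5250 bp. Within 20000 bp each gene had 10 distal peaks in replicate 1, 8 of them counted for both genes, and both had the same 7 in replicate 2. The strongest of these in replicate 1 was an intergenic peak between the genes, chr2:71539136-71539285, with a score of 142. In replicate 2 the peak overlapping it scored 47, and the strongest, with 51, lay beside it at chr2:71539436-71539585. The pair thus combined a promoter with many peaks, a set of sites between the genes and a start without a peak, in both lists.

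The other Dlx pairs had no promoter peak. Dlx3 and Dlx4, which act in skin, placenta and bone, have 5′ ends 26144 bp apart on chromosome 11. Dlx3 had 14 distal peaks in replicate 1 and 6 in replicate 2, most of them upstream of the gene, and the nearest to its 5′ end lay 1334 and 2894 bp away. Dlx4 had 7 and 1. Dlx5 and Dlx6, regulators of the jaw and the limb, have 5′ ends 18751 bp apart on chromosome 6 and sat in 1 peak-free stretch of 23650 bp in replicate 1 and 104070 bp in replicate 2. Each had 2 distal peaks in each list. The strongest, 1465 bp upstream of Dlx5 at chr6:6883476-6883625 in replicate 1, scored 117, and the peak overlapping it in replicate 2 scored 22.

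Among the 7 Pax genes, Pax6 and Pax9 had promoter peaks in both lists and Pax1, Pax2, Pax3, Pax7 and Pax8 in neither. Pax6, the regulator of eye, forebrain and pancreas development, had 11 promoter peaks in replicate 1 with scores of 54 to 145, and 12 in replicate 2 with scores of 25 to 43. None of them lay at the gene's 5′ end. The nearest was 5176 bp away in replicate 1 and 5656 bp in replicate 2, and the 5′ end sat in a peak-free stretch of 32850 and 68170 bp. The peaks lay at internal starts, of which GENCODE annotates many: Pax6 has 24 starts, the most of the 47 genes. They filled a hotspot of 5784 bp in replicate 1, from 5041 to 10824 bp inside the gene, and of 5464 bp in replicate 2, from 5210 to 10673 bp. For comparison, the widest promoter hotspot of a gene had a median of 1512 bp in replicate 1 and 899.5 bp in replicate 2 over all genes with a hotspot. A further hotspot of 1142 and 877 bp began 24058 and 24091 bp inside the gene, near another start. The top scores, 145 at chr2:105675376-105675525 and 43 at chr2:105675536-105675685, did not overlap each other.

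For Pax6, 2 intronic peaks of replicate 1 that overlap no exon are shown because they lie on either side of the gap between the hotspots (GRCm38.p6, plus strand, also the gene's strand). The first, chr2:105677896-105678045 with a score of 108, was the only promoter peak of the 47 genes in that list to hold the homeodomain core TAATTA, which is in capitals. The other, chr2:105693256-105693405 with a score of 124, was shared with replicate 2 (score 34) and held none of the 3 motifs searched.
Pax6 first site: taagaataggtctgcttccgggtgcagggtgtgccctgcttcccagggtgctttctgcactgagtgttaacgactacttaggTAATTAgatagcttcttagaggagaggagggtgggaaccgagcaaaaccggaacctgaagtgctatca
Pax6 later site: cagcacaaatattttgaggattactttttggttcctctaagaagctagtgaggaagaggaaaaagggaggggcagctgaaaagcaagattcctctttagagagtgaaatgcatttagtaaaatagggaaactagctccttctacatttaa
A match of letters does not show that a factor was bound.

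Pax9, which acts in tooth, palate, thymus and vertebral development, had 4 promoter peaks in each list. In replicate 1 the scores were 45, 145, 86 and 98 from the 5′ end onwards, and in replicate 2 they were 52, 37, 35 and 34. The strongest were chr12:56695576-56695725 (145) and chr12:56695596-56695745 (52), which overlapped at a start 3883 bp inside the outermost gene model. The peak of score 45 near the outermost 5′ end, 289 bp away, was in replicate 1 alone. It also lay within 1000 bp of a start of Gm15524, so it cannot be assigned to either gene. Its hotspot was 164 bp wide with a −log10 q of 2.74. The widest hotspot of Pax9 in replicate 1 lay at the internal start and was 2761 bp wide, with a −log10 q at its ceiling. In replicate 2 the widest of 3 pieces was 888 bp with a −log10 q of 4.19. A distal peak 13857 bp upstream, chr12:56677836-56677985, scored 138 in replicate 1, and the peak overlapping it in replicate 2 scored 47.

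**Figure D2:**
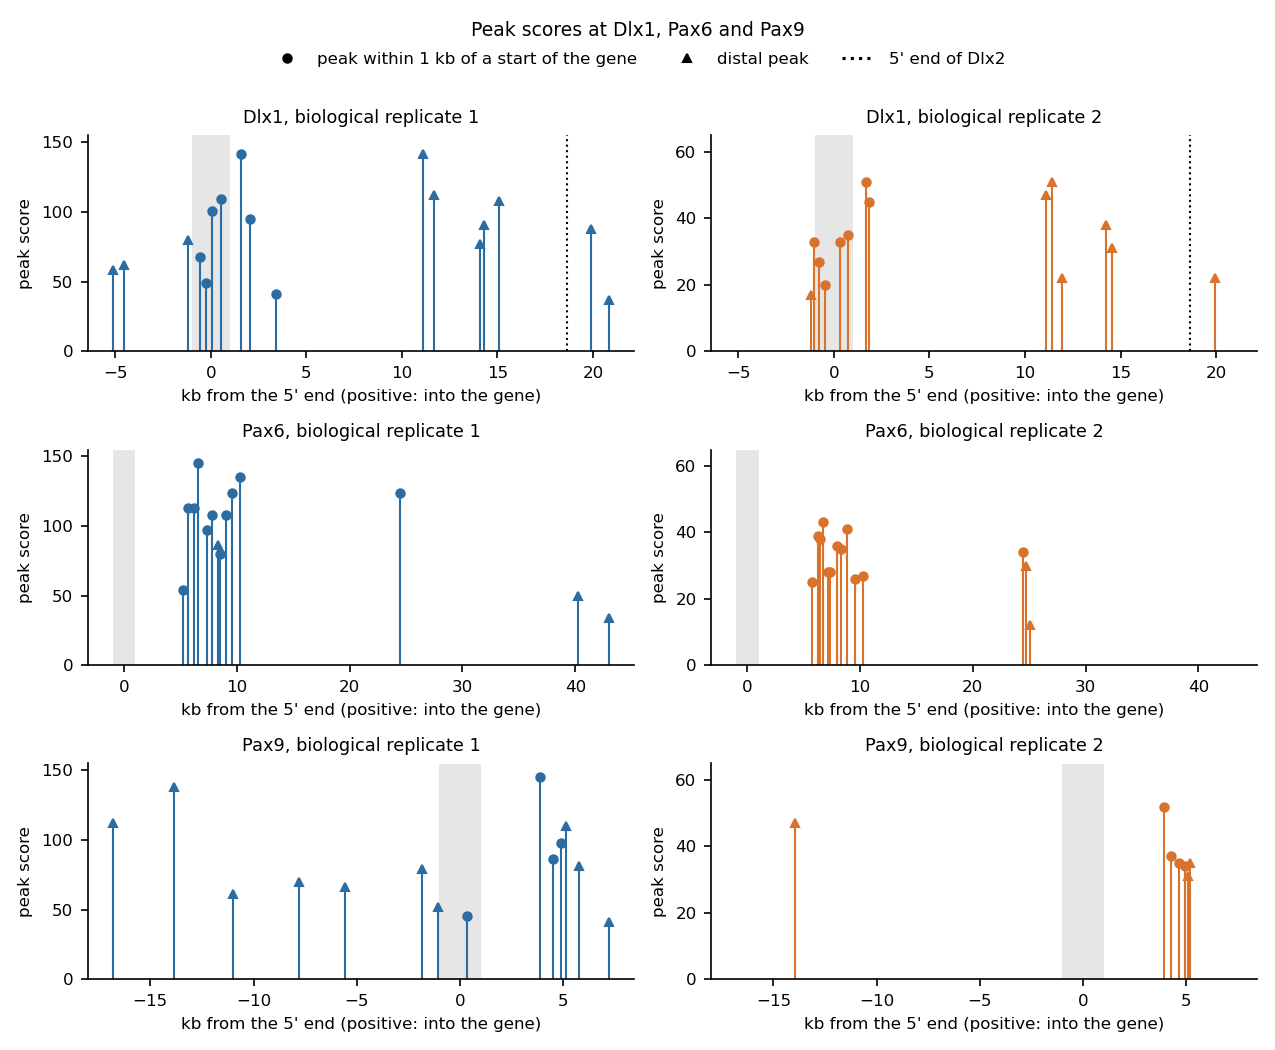
Peak scores (vertical axes, the authors' scores, not comparable between the columns) against the distance from the 5' end in kb for Dlx1, Pax6 and Pax9. Circles are peaks within 1 kb of an annotated start of the gene, triangles distal peaks, the grey band 1 kb on either side of the 5' end and the dotted line the 5' end of Dlx2. The circles of Dlx1 lie on both sides of the 5' end. Those of Pax6 gather mostly between 5 and 11 kb inside the gene, and those of Pax9 mainly 4 to 5 kb inside it. The Pax9 distal peaks of replicate 1 lie mainly upstream.

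The remaining Pax genes had only distal peaks, and Pax2, which directs kidney, eye and midbrain formation, had 15 in replicate 1, the most of all 47 genes, and 6 in replicate 2, where Dlx1 and Dlx2 had 7. Its strongest site was an intergenic peak at chr19:44750816-44750965, 5155 bp upstream, with a score of 145 in replicate 1. Replicate 2 had peaks of score 50, 60 and 52 between 44750756 and 44751605. An intronic site at chr19:44770376-44770525 scored 142, and the peak overlapping it in replicate 2 scored 47. The nearest peak to the Pax2 5′ end was 1160 bp away in replicate 1 and 4440 bp in replicate 2. Pax1, a partner of Pax9 in the vertebral column, had 3 and 1 distal peaks. Pax3 and Pax7, which specify neural crest and muscle progenitors, had 2 and 1, and 2 and 0. Pax8, a thyroid and kidney regulator, had 5 and 0.

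The Lhx genes encode LIM-homeodomain factors that specify neurons, the pituitary and the limb, and their promoter peaks were in replicate 1 alone. Lhx3, required for the pituitary and motor neurons, had 1 promoter peak with a score of 74, at its 5′ end (chr2:26208196-26208345), inside a hotspot of 438 bp. The midpoint of this peak lay in an exon of Gm27196 too. Lhx3 was also the gene with the fewest CpGs of the 47, 33 in the 2001 bp around the 5′ end. Lhx6, a regulator of cortical interneurons, had 3 promoter peaks with scores of 62, 38 and 51. The strongest stood at an internal start, chr2:36093856-36094005. Lhx9, which acts in the gonad and the limb, had no peak within 1000 bp of a start, but a hotspot of 1269 bp at the ceiling value reached into that window. The 12 distal peaks of Lhx9, with scores of 28 to 107, were all in replicate 1, and replicate 2 had none. Lhx1, Lhx2, Lhx5 and Lhx8 had no promoter peak in either list.

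Otx2, a head and eye regulator, was the other gene with promoter peaks in replicate 1 alone. Its 2 peaks scored 55 and 30 and stood 12669 and 9729 bp inside the outermost gene model, near internal starts. The scores of Lhx3, Lhx6 and Otx2 (74, 62 and 55 for the top peak) all fell below 114, the lower quartile of the top promoter score over the genes with a promoter peak in replicate 1. The top scores of Dlx1, Pax6 and Pax9 (142, 145 and 145) exceeded the median of 135. In replicate 2 the median was 47, and Dlx1 (51) and Pax9 (52) stood above it and Pax6 (43) below. With the same number of peaks taken from both lists, the highest-scoring ones, replicate 1 gave Dlx1, Pax6 and Pax9 alone, 6.38% of the 47 genes against 54.6% of all genes.

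No promoter peak was called in either list at the 6 Nkx genes, which specify thyroid, lung, heart, gut and ventral neurons, or at Six2, Six3 and Six6, which act in eye, kidney and forebrain. The same held for Msx1 and Msx2 (limb and tooth), Otx1, Emx1 and Emx2 (cortex) and Gbx2, Gsx1 and Gsx2 (hindbrain boundary and ventral forebrain). It also held for En1 and En2 (midbrain and cerebellum), Barhl1 and Barhl2 (sensory neurons), Evx1 and Evx2 (spinal interneurons, next to the Hoxa and Hoxd clusters), and Irx1, Irx2 and Irx3 (neural and heart patterning).

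The missing promoter peaks stood against a high CpG content. The 2001 bp around the 5′ end held a median of 102 CpGs in the 47 genes and 61 over all genes, and the ratio of observed to expected CpG had medians of 0.62 and 0.47. When all genes were ranked by this count and divided into 10 classes, 44 of the 47 genes fell in the 5 CpG-richest. In those 5 classes, the share of all genes with a promoter peak was 82.7% in replicate 1 and 71.3% in replicate 2. Weighted by the classes in which the 47 genes lie, the share of all genes was 81.5% and 69.4%, against 12.8% and 6.38% observed. The intervals around the observed shares end at 25.2% and 17.2%, below these values. They cover counting error only and are no test, since the genes were chosen with earlier results known. Among the 22 members of the 2 richest classes, where 83.5% and 80.7% of all genes had a promoter peak in replicate 1, none had one in either list.

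**Figure D3:**
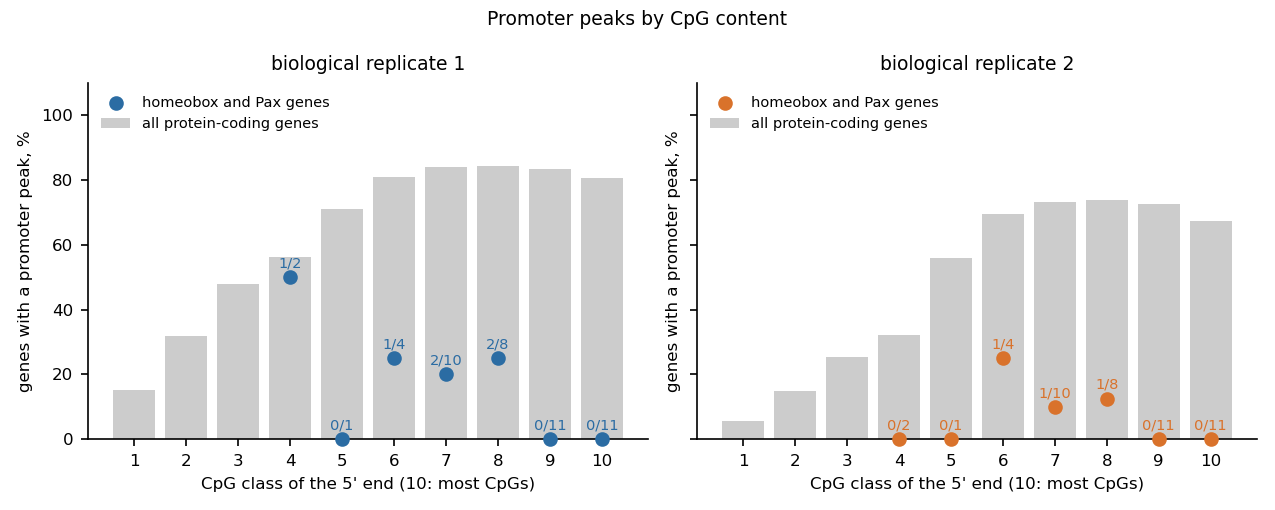
Share of genes with a promoter peak (vertical axes, percent) in 10 classes of CpG count around the 5' end (horizontal axes). Grey bars are all protein-coding genes; points are the homeobox and Pax genes, labelled with the number that had a peak and the number in the class. The bars rise to above 80% in replicate 1, while the points stay at 0 in classes 9 and 10, with 11 genes each.

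The genes with and without a promoter peak in replicate 1 also differed in how many starts are annotated. The 6 with a peak had a median of 6.5 starts (range 3 to 24) and the 41 without had a median of 2 (1 to 7). More starts give more sequence in which a peak can be counted. At the outermost 5′ end alone, 4 genes (Dlx1, Lhx3, Lhx6 and Pax9) had a promoter peak in replicate 1 and Dlx1 alone in replicate 2, against 57.0% and 43.7% of all genes. The observed to expected CpG ratio was 0.61 in the genes with a peak (0.25 to 0.62) and 0.65 in those without (0.26 to 0.93).

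The density of peaks was also lower than over all genes beyond the promoter window, out to 50 kb. Any peak was counted for the densities, nearest peaks and peak-free stretches, including peaks at the starts of other genes. Over all genes the density of peaks was highest in the first kb from the 5′ end, at 0.745 and 0.62 peaks per kb per gene. The homeobox and Pax genes had 0.0851 and 0.0532 in that first kb. In replicate 1 this was the lowest density of the 6 distance ranges, while in replicate 2 it was lower still from 2 to 5 kb (0.0461) and from 20 to 50 kb (0.0404). When the promoter window was widened to 2000 bp on either side of a start, 7 more genes had a peak in replicate 1, namely Dlx2, Dlx3, Dlx5, Lhx9, Nkx2-1, Pax2 and Six3. The share rose to 27.7%, against 69.9% of all genes. In replicate 2, Dlx2, Dlx5 and Lhx2 were added, to 12.8% against 52.4%. From 10 to 20 kb they had 0.152 and 0.0543, against 0.199 and 0.0731 over all genes. From 20 to 50 kb they had 0.145 and 0.0404, against 0.203 and 0.0796. The share of genes with at least 1 peak in these 2 ranges was not lower in replicate 1. It was 83.0% and 95.7% of the 47 genes, against 80.9% and 91.4% of all genes. In replicate 2 it was 36.2% and 68.1%, against 46.0% and 77.2%. The density of the 47 genes was below that of all genes in each of the 6 ranges in both lists, and the difference was largest in the first kb. In neither list did the difference shrink steadily with distance. In replicate 2 the densities from 5 to 10 kb were 0.0638 for the 47 genes and 0.0718 over all genes.

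**Figure D4:**
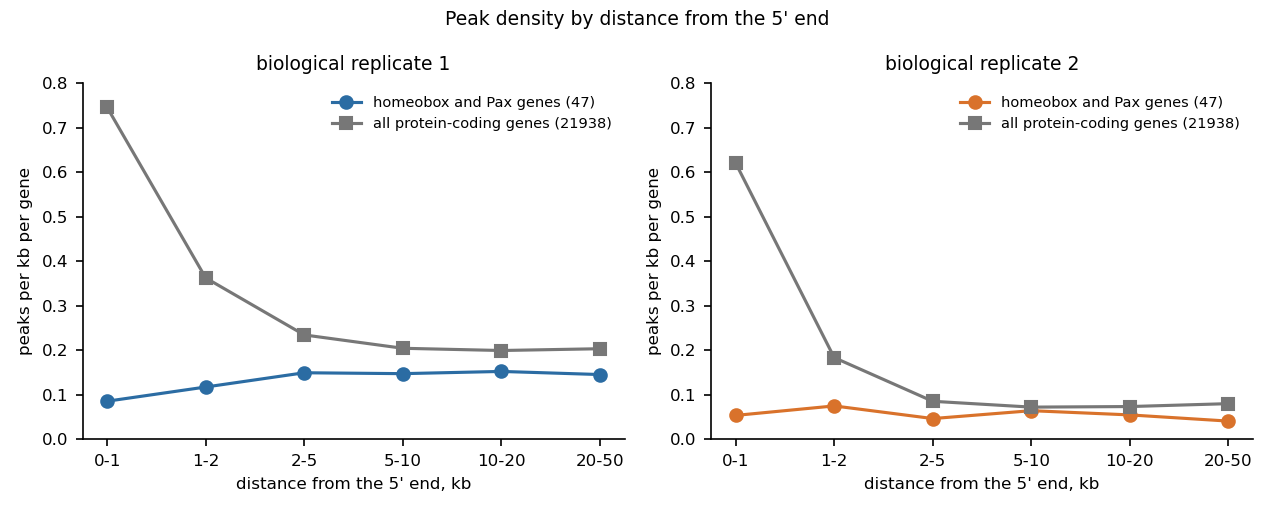
Number of peaks per kb and gene (vertical axes) by distance from the 5' end in kb (horizontal axes), for the 47 homeobox and Pax genes (coloured circles) and all 21938 protein-coding genes (grey squares). The grey line is highest in the first kb, at 0.745 and 0.62, and the coloured line is low there, at 0.0851 and 0.0532.

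The median distance from the 5′ end to the nearest peak was 6162 bp in replicate 1 and 14613 bp in replicate 2. It was 264 and 3108 bp over all genes, and 19 and 145 bp over the genes of the 5 CpG-richest classes. The stretch without a peak that holds the 5′ end had a median of 20310 and 74690 bp, compared with 3630 and 27370 bp over all genes. In replicate 1 this stretch exceeded the median of all genes at 44 of the 47, the exceptions being Dlx1, Lhx3 and Pax9. In replicate 2 it did so at 39.

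In replicate 1 the longest such stretches held Gbx2 (270370 bp), En1 (220630 bp), Pax3 (170410 bp), Msx1 (139890 bp) and Msx2 (115590 bp). In replicate 2 they held Pax1, Gbx2, Irx2, Msx2 and Irx1. Gbx2, which sets the boundary of midbrain and hindbrain, lay in a stretch of 270370 bp in replicate 1 and 1078570 bp in replicate 2. Msx2 lay in one of 115590 and 608950 bp, Irx1 in one of 60030 and 589670 bp and Irx2 in one of 67490 and 1057630 bp. These 4 genes were those with no distal peak within 20000 bp in either list. Pax1 showed how far the lists can differ, with 24770 bp in replicate 1 and 1231610 bp in replicate 2. At En1 the order was reversed, 220630 bp in replicate 1 and 93770 bp in replicate 2. The shortest were 0 bp at Lhx3, whose 5′ end lay in a peak, in replicate 1, and 590 bp at Dlx1 in replicate 2. Dlx1 had 170 bp in replicate 1.

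**Figure D5:**
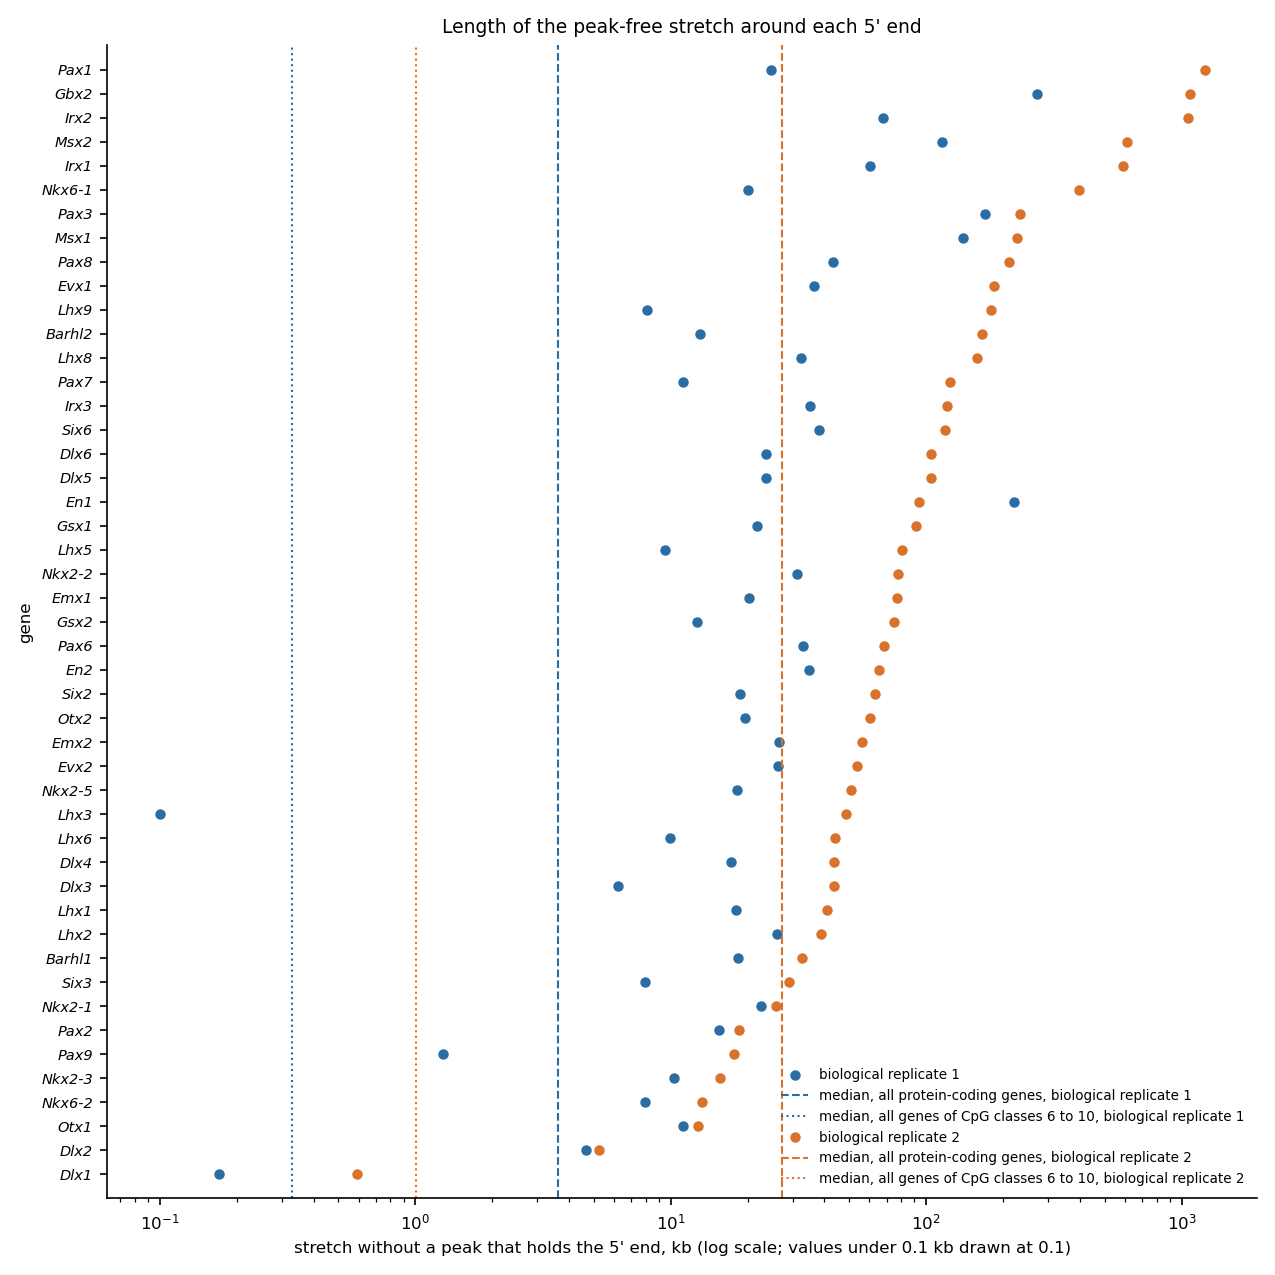
Length of the peak-free stretch that holds the 5' end of each gene (horizontal axis in kb, log scale), in order of the value in biological replicate 2. Blue points are biological replicate 1 and orange points biological replicate 2; dashed lines are the medians of all protein-coding genes and dotted lines those of the 5 CpG-richest classes. Blue points of 44 genes lie right of the blue dashed line at 3630 bp, and orange points of 39 genes right of the orange one at 27370 bp.

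Most of the genes without a promoter peak had distal peaks nearby in replicate 1, though the counts were not high beside those of all genes. The median number within 20000 bp was 5 in replicate 1 (range 0 to 15) and 1 in replicate 2 (0 to 7), against 7 and 1 over all genes. The upper quartiles were 8.5 and 2, against 12 and 4 over all genes. A distal peak was present in both lists at 29 genes, in replicate 1 alone at 14 and in neither at 4. After Pax2, the highest counts in replicate 1 were at Dlx3 (14, and 6 in replicate 2), Nkx6-2 (14 and 4), Nkx2-2 (13 and 4), Nkx2-3 (12 and 5), Lhx9 (12 and 0) and Dlx1, Dlx2, Pax9 and Lhx5 (10 each, with 7, 7, 3 and 3 in replicate 2). By family, the median in replicate 1 was highest in Nkx (10.5) and Dlx (8.5) and lowest in Irx (0).

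The genes together had 255 different distal peaks in replicate 1 and 72 in replicate 2. Of those in replicate 1, 149 were intergenic, 85 intronic and 21 exonic. The median score was 53 in replicate 1 and 24 in replicate 2, compared with 58 and 27 over all distal peaks. Between the lists, 18.8% of the distal peaks in replicate 1 and 69.4% in replicate 2 overlapped a peak of the other, against 20.4% and 73.5% over all distal peaks. For promoter peaks, 46.4% of the 28 in replicate 1 and 65.2% of the 23 in replicate 2 overlapped a peak of the other list, against 41.9% and 63.4% over all promoter peaks. Scores in the top 10% of the list were reached by 16 of the 255 distal peaks in replicate 1, near 10 of the genes. In replicate 2 they were reached by 7 of the 72, near 5 genes. By its definition this cut is reached by at most 10% of all peaks of a list, promoter peaks included, so neither count is high.

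In the Nkx family, these strong distal sites stood near Nkx2-3 in both lists and near Nkx2-2 in replicate 2 alone. The other Nkx genes had none. Such sites were not particular to this family. Those of replicate 1 also included sites at Pax2 (145, 142, 138 and 132), Lhx3 (132 and 126), Lhx6 (132) and Dlx3 (127). Nkx2-2, a regulator of ventral neurons and pancreatic islet cells, had 4 intronic peaks in replicate 2 grouped between 15173 and 16253 bp from its outermost 5′ end. The strongest had the same coordinates in both lists, chr2:147178256-147178405, with scores of 115 and 59. Nkx2-3, which acts in gut and spleen, had 5 distal peaks in replicate 2, and all of them overlapped a peak of replicate 1. Its strongest site in replicate 1, chr19:43624076-43624225, scored 137 and lay 11825 bp from the start. At the site 12255 bp upstream, chr19:43599996-43600145 scored 128 in replicate 1, and replicate 2 had peaks of score 55 and 54 that both overlapped it. Nkx6-2 differed in that its 14 peaks in replicate 1 included 7 in introns of Inpp5a, a neighbouring gene. Nkx2-1 had 9 and 2 distal peaks, Nkx2-5, the heart regulator, 3 and 2, and Nkx6-1 had 2 and 0.

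Of the other families, Otx1 had a site at the same coordinates in both lists, chr11:22008196-22008345, with scores of 141 and 34, inside an intron of Ehbp1. Lhx1, which acts in kidney and head formation, had a peak of score 127 in an intron of Aatf, and the peak overlapping it in replicate 2 scored 43. Peaks inside another gene cannot be assigned to the homeobox gene by position alone. Evx2 had 7 and 3 distal peaks and Six3, a forebrain and eye regulator, 9 and 2. Emx1 and Gsx2 had 8 in replicate 1 and none in replicate 2, and Barhl1 had 8 and 2. Msx1 had 5 and 2, grouped between 12393 and 14213 bp from its 5′ end with scores of 24 to 48 and 12. En1 was the only gene with more distal peaks in replicate 2 (2) than in replicate 1 (1).

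The sequences of 5 strong distal sites that overlap no exon are shown as examples (GRCm38.p6, plus strand, coordinates as above for replicate 1). Matches to the motifs searched are in capitals.
Dlx1 and Dlx2, between the genes: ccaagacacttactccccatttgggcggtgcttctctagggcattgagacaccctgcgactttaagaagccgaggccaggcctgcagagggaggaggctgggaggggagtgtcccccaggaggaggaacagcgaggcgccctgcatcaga
Pax2, upstream: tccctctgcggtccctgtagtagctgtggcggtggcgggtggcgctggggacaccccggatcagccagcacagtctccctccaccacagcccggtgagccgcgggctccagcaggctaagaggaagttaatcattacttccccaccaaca
Nkx2-2, intron: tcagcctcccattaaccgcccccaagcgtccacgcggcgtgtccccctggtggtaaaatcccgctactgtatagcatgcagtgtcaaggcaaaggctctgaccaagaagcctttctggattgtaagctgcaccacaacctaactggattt
Nkx2-3, downstream: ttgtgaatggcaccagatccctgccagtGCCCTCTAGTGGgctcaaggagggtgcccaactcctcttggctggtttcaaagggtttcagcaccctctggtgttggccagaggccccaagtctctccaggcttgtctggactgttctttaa
Nkx2-3, upstream: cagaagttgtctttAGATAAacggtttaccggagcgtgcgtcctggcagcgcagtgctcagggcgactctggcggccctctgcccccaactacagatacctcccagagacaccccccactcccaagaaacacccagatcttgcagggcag
The downstream Nkx2-3 site held the core letters of the CTCF motif, on the minus strand. The upstream Nkx2-3 site held the GATA letters, on the plus strand. The Dlx, Pax2 and Nkx2-2 sites held none of the 3 motifs.

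Motifs were searched on both strands as fixed letters: AGATAA for GATA factors, CCANNAGNNGGC for the core of CTCF and TAATTA for homeodomains. GATA letters stood in 7.06% of the distal peaks (18 of 255) in replicate 1 and 12.5% (9 of 72) in replicate 2, against 10.2% and 10.7% over all distal peaks of the same width. CTCF letters stood in 8.63% (22 of 255) and 8.33% (6 of 72), against 7.0% and 6.41%. Homeodomain letters stood in 1.18% (3 of 255) and 5.56% (4 of 72), against 2.15% and 3.14%. Each share rests on at most 22 peaks, and for GATA and the homeodomain its direction differed between the lists. A match is a description of the letters and not of a bound factor.

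The scarcity of promoter peaks was shared by related developmental genes and not by all homeobox genes. Of 78 other developmental homeobox and Pax genes, promoter peaks were called at 14 (17.9%, 11 to 27.9%) in replicate 1 and at 4 (5.13%, 2.01 to 12.5%) in replicate 2, with intervals that overlap those of the 47. Among those with a promoter peak in both lists were Pitx3 (scores 140 and 52), Hesx1 (105 and 37) and Hmx2 (133 and 35). Of 31 homeobox and Pax genes known from blood or from many tissues, 27 (87.1%, 71.1 to 94.9%) and 23 (74.2%, 56.8 to 86.3%) had a promoter peak, with intervals apart from those of the 47. Both lists were also chosen with earlier results known, so comparing the intervals is no test. The highest scores in replicate 2 among them were at Zhx1 (146 and 70), Pou2f1 (139 and 62), Hopx (145 and 57), Zeb2 (132 and 56) and Adnp2 (145 and 55). Pax5, the B cell regulator, and Zhx2 were among those without one in either list.

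Genes of the Polycomb complexes themselves mostly had promoter peaks, as did most CpG-rich genes. Promoter peaks were called at all 31 genes of the Polycomb list in replicate 1 and at 27 of 31 (87.1%, 71.1 to 94.9%) in replicate 2. The shares were 63.6% and 49% over all genes, and 82.7% and 71.3% in the 5 CpG-richest classes. The 2001 bp around the 5′ end held a median of 120 CpGs in the Polycomb list. Those with the highest scores in replicate 2 were Rbbp7 (141 and 63), Mtf2 (142 and 60), Kdm2b, which recruits a Polycomb complex to CpG islands (125 and 58), Cbx8 (145 and 57) and Pcgf1 (132 and 55). Neither Polycomb binding nor RNA was measured, so their part in the missing promoter peaks of the homeobox genes was not tested.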

How the data were processed

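DNase-seq was deposited for 3 libraries of MEL cells in 1 group. The deposited text records tie the whole-series lists to an alignment of both libraries of biological replicate 1, so those lists were read as replicate 1. Lists are on mm10, per the labels. Aligner, caller and filters were not given in the sources used here. The score of each peak is the authors' own whole number and its meaning is not stated. Hotspots carry a deposited −log10 q, which was 6 or lower, or at a ceiling of 100. Files give no read counts, so depth is unknown, and 1 list per replicate allows no standard deviation and no test over samples.

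Peaks were assigned to GENCODE release 21 starts (overlap of at least 1 bp) with Python 3.11.15, pandas 2.3.3, numpy 2.4.6 and pysam 0.24.0, in code tested on simulated data. All 84 pairs of list and chromosome lay within the lengths of GRCm38.p6. Intervals are 95% Wilson intervals. Members, comparison lists (31, 31, 12, 12 and 79 genes, 1 unmatched by symbol) and motifs were chosen with earlier results of these data known. Genes named were all 47 members, those of other lists with the highest replicate 2 promoter scores (up to 5 a list) and some without a promoter peak. Some genes of the comparison lists are not reported here. Windows, distances, score and q thresholds, equal peak numbers, overlap and CpG classes were varied.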

Additional observations from a re-analysis of the deposited data

How the results depend on the processing

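Of 41 alternative values, 28 stayed the same and 13 moved. A share stayed the same within the counting interval of the reported value, and a median count within 1.5 times it. A median score rank did so within the standard deviation over the genes. The median percent of the list's peaks outranked by the genes' top promoter peaks was 78.5 and 90.7, against 94.9 and 85.7 over all genes. For the peak nearest to a start it was 70.8 and 90.7, against 91.3 and 75.5. A promoter window of 2000 bp raised the share of the 47 genes with a promoter peak in replicate 1 to 27.7% and with a promoter hotspot to 29.8%, against 69.9% and 70.2% of all genes. At the outermost 5′ end alone, the share in replicate 2 and the share in both lists fell to 2.13%. The median number of distal peaks was 2 and 0 within 10000 bp (4 and 1 over all genes), 13 and 3 within 50000 bp (18 and 4), and 1 and 0 in the highest-scoring 50% of each list (3 and 0). It was 1 in replicate 1 with as many peaks as in replicate 2 (2 over all genes). When sharing required 50% of both peaks, 28.6% and 39.1% of the genes' promoter peaks were shared, against 29.3% and 42.9% over all promoter peaks. Without biological replicate 2 the share with a promoter peak in either list stayed at 12.8%, and without biological replicate 1 it was 6.38%. In each of these settings the share of the 47 genes with a promoter peak stayed below that of all genes. No hotspot value lay between 6 and 100, so the stricter q thresholds gave the same genes as each other. No paired analysis was possible because there is 1 group. Unknown depth limits every statement about a gene without a peak.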
